A study of Mus musculus and Rattus norvegicus with 30 samples.

Results

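Matricellular proteins are secreted into the extracellular matrix, where they act on cells through receptors rather than serving mainly as structural fibres. The 10 genes described here encode 3 thrombospondins (Thbs1, Thbs2, Thbs4), osteopontin (Spp1), tenascin C (Tnc), periostin (Postn), cartilage intermediate layer protein (Cilp), and 3 proteins of the SPARC family (Sparc, Smoc1, Smoc2). They were matched by symbol to 10 of 32545 genes in the rat table and to 10 of 54307 genes in the mouse tables, and all 10 passed the filter on low counts in both species. The rat series held 12 RNA-seq libraries of neonatal rat ventricular myocytes (NRVM), heart muscle cells taken from pups of 3 days after a plating step meant to remove fibroblasts, and grown at first with bromodeoxyuridine. These cells received siRNA against ERR alpha and ERR gamma (the double knockdown) or a scrambled siRNA, typically at 25 nM. They were then given 10 µM of 915, which activates estrogen-related receptors (ERR), or the same volume of DMSO for 24 hours. Each of the 4 rat groups (scramble vehicle, scramble 915, knockdown vehicle, knockdown 915) held 3 libraries. The labels do not say whether these came from separate isolations, so rat p-values measure the spread between libraries, which may be technical. The rat libraries were made from poly-T selected RNA without strand, so reads of overlapping or antisense genes cannot be told apart there.

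The mouse series held 18 libraries of left ventricle from wild-type mice after transverse aortic constriction (TAC), which loads the heart with pressure, or sham surgery. The mice received the ERR agonist 332 by intraperitoneal injection or vehicle for 6 weeks after surgery. There were 3 sham vehicle, 5 sham 332, 5 TAC vehicle and 5 TAC 332 hearts. Strain, age, sex and the dose of 332 are not given in the sources used here.

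In healthy adult heart most matricellular genes are expressed at low levels, and they are known to rise in injured or overloaded tissue, largely in fibroblasts. Thrombospondin 1 binds the receptors CD36 and CD47 and can release transforming growth factor beta from its latent form. Osteopontin, tenascin C and periostin bind integrins, SPARC binds collagen, and ERR alpha and ERR gamma are nuclear receptors known for driving genes of mitochondrial energy metabolism.

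Promoter sequence is shown for the 4 members with the largest TAC changes among the 7 that have a window in the RefSeq promoter table (mouse, GRCm38.p6), because these genes rose together in TAC hearts. Each line gives the 250 bases before an annotated start site, 5′ to 3′ on the gene's own strand. Capitals mark matches on either strand to TATAAA (a form of the TATA box), TGANTCA (AP-1), TNAAGGTCA (an ERR response element) or GGAATG (TEAD).
Cilp, chr9:65264930-65265179, plus strand: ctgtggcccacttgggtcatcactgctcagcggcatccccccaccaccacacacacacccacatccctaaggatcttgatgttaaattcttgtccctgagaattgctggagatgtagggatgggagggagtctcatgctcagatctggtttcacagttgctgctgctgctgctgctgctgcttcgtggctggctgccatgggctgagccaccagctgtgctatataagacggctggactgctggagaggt
Thbs4, chr13:92794819-92795068, minus strand: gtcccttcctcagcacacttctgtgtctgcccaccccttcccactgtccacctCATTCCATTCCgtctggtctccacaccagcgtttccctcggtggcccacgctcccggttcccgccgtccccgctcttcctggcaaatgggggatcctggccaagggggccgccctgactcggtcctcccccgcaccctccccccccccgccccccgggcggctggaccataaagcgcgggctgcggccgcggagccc
Tnc, chr4:64047016-64047265, minus strand: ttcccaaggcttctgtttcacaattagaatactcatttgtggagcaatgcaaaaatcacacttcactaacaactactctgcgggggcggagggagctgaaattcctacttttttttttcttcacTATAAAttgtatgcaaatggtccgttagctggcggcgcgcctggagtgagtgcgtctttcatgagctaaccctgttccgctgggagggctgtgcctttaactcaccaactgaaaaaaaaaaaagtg
Postn, chr3:54360857-54361106, plus strand: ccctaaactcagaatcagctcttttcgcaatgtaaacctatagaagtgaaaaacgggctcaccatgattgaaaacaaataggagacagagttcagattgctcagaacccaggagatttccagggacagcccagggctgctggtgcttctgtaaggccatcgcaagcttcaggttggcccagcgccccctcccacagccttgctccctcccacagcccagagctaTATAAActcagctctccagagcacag
The Postn window held TATAAA at -26 to -21 from the start, and the Tnc window held it at -126 to -121. Only these exact letters were searched, so related forms of the TATA box are unmarked. The Cilp window holds TATATAAG near its end, as does the other Tnc window, which is not printed. The Thbs4 window held 2 GGAATG matches on the other strand, which share 1 base. Over all 10 windows of the 7 members, TATAAA matched in 5 windows of 4 members, 2 of them overlapping Tnc windows that share 1 site. GGAATG matched in 1 window, and TGANTCA and TNAAGGTCA in 0. In 32536 windows of the same length the motifs, in that order, matched in 12.3%, 12.6%, 6.73% and 1.13%. A match is only a run of letters, and no binding was measured.

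Library totals ran from 12013379 to 18315341 counts in rat and from 11375917 to 16599930 in mouse. The targeted genes fell in knockdown vehicle cells, Esrra by 3.39 and Esrrg by 2.85 on the log2 scale (edgeR quasi-likelihood test, adjusted p = 4.39e-07 and 5.81e-11). CPM are counts scaled to the library total after that total was multiplied by a scaling factor (TMM). Of 8 listed cardiomyocyte markers 7 were found in the rat table, and their summed CPM was 9589.6 to 10614 in scramble vehicle cells. The 8 fibroblast markers summed to 11528 to 13156 CPM in the same libraries, while 5 endothelial and 6 macrophage markers summed to at most 18.2 and 30.9. In mouse, the 8 cardiomyocyte markers summed to 47007 to 49822 CPM in sham vehicle hearts.

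In scramble vehicle myocytes, levels per transcript length (FPKM, the authors' values) differed widely between members. Sparc was highest at 2389.8 ± 61.1 FPKM (SD, n = 3), followed by Postn at 405 ± 34.7 and Thbs1 at 312 ± 12.02. Then came Tnc at 53.6 ± 1.305, Spp1 at 51.8 ± 6.24, Cilp at 44.5 ± 2.84 and Smoc1 at 35.7 ± 2.39. Thbs2 at 20.6 ± 0.631, Smoc2 at 8.14 ± 0.5102 and Thbs4 at 4.71 ± 0.196 FPKM were lowest. In this order Tnc overlapped Spp1, and Spp1 overlapped Cilp, while the other neighbours had separate ranges. In the rn6 coordinates of the table, Spp1 lies at chr14:6673686-6679901 on the minus strand, Smoc1 at chr6:104718512-104877980 on the plus strand and Thbs1 at chr3:109862117-109873466 on the plus strand. Smoc2, at chr1:56242346-56374120 on the plus strand, and Thbs2, at chr1:56653938-56683731 on the minus strand, are on the same chromosome and do not overlap. These spans cover whole genes, exons and introns together.

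**Figure D1:**
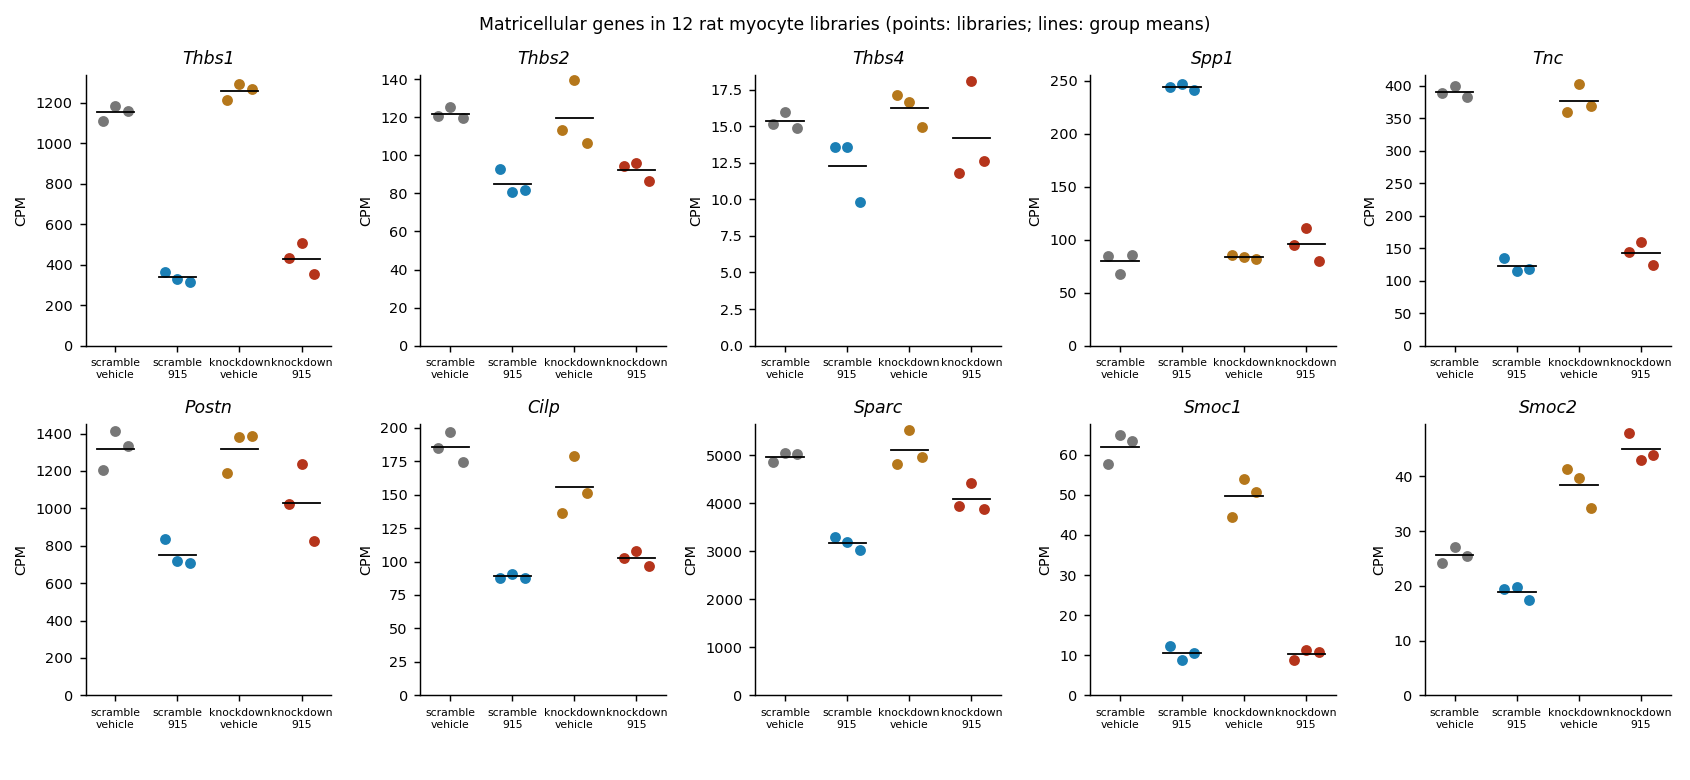
CPM (linear axis from 0) of each member in every rat library, by group, with lines at the group means of 3 libraries. Spp1 stands at 241 to 247 CPM in scramble 915 cells and below 112 CPM in the 3 other groups, whereas Smoc1 is low in both 915 groups.

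The agonist 915 lowered most matricellular genes in scramble cells. Of the 10 members 8 fell and 1, Spp1, rose, against 42.2% of the 15181 tested genes called in this comparison (20.6% lower and 21.5% higher). The members' median log2 change was -0.73, beside 0.01 over all tested genes. A gene was called at an adjusted p below 0.05 (edgeR quasi-likelihood, adjusted by Benjamini and Hochberg over all tested genes), and log2 changes carry the SE of that fit. Ranges of groups were compared in CPM. Across all tested genes the ranges of the 2 groups did not overlap for 27.3%, higher, and 25.6%, lower. In these bulk libraries fewer cells of a type and less RNA per cell cannot be told apart.

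Among the thrombospondins, Thbs1 had the largest fall. Thbs1 was at 1111, 1184 and 1161 CPM in scramble vehicle cells and fell to 364, 331 and 315 CPM with 915, a log2 change of -1.78 (SE 0.11, adjusted p = 3.43e-07). All 3 treated libraries were below every vehicle library. Thbs2, an inhibitor of blood vessel growth, went from 121, 126 and 119.5 to 92.9, 80.7 and 81.8 CPM, a log2 change of -0.52 (SE 0.08, adjusted p = 6.72e-05). Thbs4, a pentameric thrombospondin, was at 15.2, 15.96 and 14.8 CPM against 13.5, 13.6 and 9.801, a log2 change of -0.32 (SE 0.15, adjusted p = 0.0899) that did not pass the test. Thbs4 passed only without knockdown 915 replicate 2 (adjusted p = 0.0435) or when only the groups compared were fitted (adjusted p = 0.0496).

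Tnc, which is re-expressed where tissue is remodelled, was at 389, 399 and 383 CPM in vehicle cells and 135, 115 and 118 under 915, a log2 change of -1.67 (SE 0.08, adjusted p = 9.42e-11). Postn, a gene of activated fibroblasts, was at 1206, 1414 and 1336 and then 835, 717 and 707 CPM, a log2 change of -0.81 (SE 0.15, adjusted p = 0.0019). Cilp, whose product binds transforming growth factor beta 1, was at 185, 197 and 175 and then 87.9, 90.9 and 87.6 CPM, a log2 change of -1.06 (SE 0.08, adjusted p = 2.66e-09). In each of these 3 genes the treated and vehicle libraries did not overlap.

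In the SPARC family Smoc1 had the largest fall of all 10 members. Smoc1, a secreted calcium-binding protein that modulates bone morphogenetic protein signals, was at 57.7, 64.8 and 63.4 CPM in vehicle cells and 12.4, 8.81 and 10.5 under 915. Its log2 change was -2.56 (SE 0.11, adjusted p = 1.05e-14), a fitted level 5.89-fold lower. Smoc2, its close relative, was at 24.3, 27.1 and 25.5 and then 19.4, 19.9 and 17.3 CPM, a log2 change of -0.44 (SE 0.09, adjusted p = 0.000378). Sparc was at 4865, 5044 and 5021 and then 3295, 3202 and 3029 CPM, a log2 change of -0.65 (SE 0.06, adjusted p = 3.77e-09).

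Spp1 was the exception in direction. Spp1 was at 84.4, 68.02 and 85.8 CPM without 915 and rose to 244, 247 and 241 CPM with it, a log2 change of 1.62 (SE 0.11, adjusted p = 3.36e-07). All 3 treated libraries were above every vehicle library.

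With both receptors knocked down, 915 lowered 6 members and raised 1, against 35.7% of tested genes called (17.6% lower, 18.1% higher). The ranges of the groups were apart for 22.9% of tested genes downward and 22.7% upward. Smoc1, Thbs1 and Tnc remained the members with the largest falls. Smoc1 went from 44.5, 53.9 and 50.6 to 8.8, 11.4 and 10.9 CPM, a log2 change of -2.25 (SE 0.11, adjusted p = 2.74e-13). Thbs1 went from 1212, 1289.9 and 1267 to 433, 505 and 352 CPM, a log2 change of -1.55 (SE 0.11, adjusted p = 1.48e-06). Tnc went from 359, 403 and 368 to 144, 159 and 124 CPM, a log2 change of -1.4 (SE 0.08, adjusted p = 1.32e-09). For none of these 3 genes did the change under 915 differ detectably between knockdown and scramble cells (adjusted p = 0.347, 0.518 and 0.236 for the difference). That does not show that the changes were alike: the differences were 0.30 (SE 0.16), 0.23 (SE 0.15) and 0.27 (SE 0.11). Without knockdown 915 replicate 3, those of Thbs1 (0.35, adjusted p = 0.0174) and Tnc (0.35, adjusted p = 0.0214) passed.

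The log2 changes of the other members in knockdown cells lay between -0.60 and 0.23. Cilp was at 136, 179 and 151 CPM in knockdown vehicle cells and 103, 108 and 96.7 under 915, a log2 change of -0.60 (SE 0.08, adjusted p = 5.85e-06). Thbs2 was at 113, 139.6 and 106 and then 94.3, 95.9 and 86.5 CPM, a log2 change of -0.38 (SE 0.08, adjusted p = 0.00166). Sparc was at 4826, 5524 and 4968 and then 3945, 4427 and 3889 CPM, a log2 change of -0.32 (SE 0.06, adjusted p = 0.000144). The 915 libraries of these 3 genes were below every vehicle library. Postn was at 1187, 1384 and 1386 and then 1022, 1239 and 826 CPM, a log2 change of -0.36 (SE 0.15, adjusted p = 0.0904). Thbs4 was at 17.1, 16.7 and 14.95 and then 11.8, 18.1 and 12.6 CPM, a log2 change of -0.20 (SE 0.15, adjusted p = 0.325). Neither passed. Both passed without knockdown 915 replicate 2, the highest library of its group for each (Postn -0.51, adjusted p = 0.0133, and Thbs4 -0.41, adjusted p = 0.0319).

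Spp1 and Smoc2 differed most between the 2 backgrounds. Spp1 was at 85.6, 83.8 and 81.6 CPM in knockdown vehicle cells and 95.1, 111 and 79.8 under 915, a log2 change of 0.19 (SE 0.11, adjusted p = 0.221) that did not pass. The groups overlapped, and Spp1 passed only without knockdown 915 replicate 3, the lowest library (0.30, adjusted p = 0.00928). The difference between the 915 effects on Spp1, knockdown minus scramble, was -1.43 (SE 0.16, adjusted p = 0.000484). Smoc2 was at 41.4, 39.7 and 34.2 CPM in knockdown vehicle cells and 48.01, 43.03 and 43.997 under 915, a log2 change of 0.23 (SE 0.09, adjusted p = 0.0405), opposite in sign to scramble cells. The Smoc2 rise lost its call without knockdown vehicle replicate 2 or 3 or knockdown 915 replicate 1 or 3 (adjusted p between 0.0557 and 0.23). The difference of effects on Smoc2 was 0.67 (SE 0.13, adjusted p = 0.00238).

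In all, 4 members passed the test of the difference, against 3.73% of tested genes (1.74% above 0, 1.99% below). Besides Spp1 and Smoc2 these were Cilp at 0.46 (SE 0.11, adjusted p = 0.0226) and Sparc at 0.33 (SE 0.08, adjusted p = 0.0297), both with smaller falls in knockdown cells. The Cilp call was lost in 7 and the Sparc call in 8 of the 12 fits that left out 1 library (adjusted p up to 0.083 and 0.123). The calls of Spp1 and Smoc2 held in all 12. All 10 members had a 915 change that was nearer 0, or of the other sign, in knockdown than in scramble cells, as had 68.3% of all tested genes and 77.1% of the genes called under 915 in scramble cells.

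**Figure D2:**
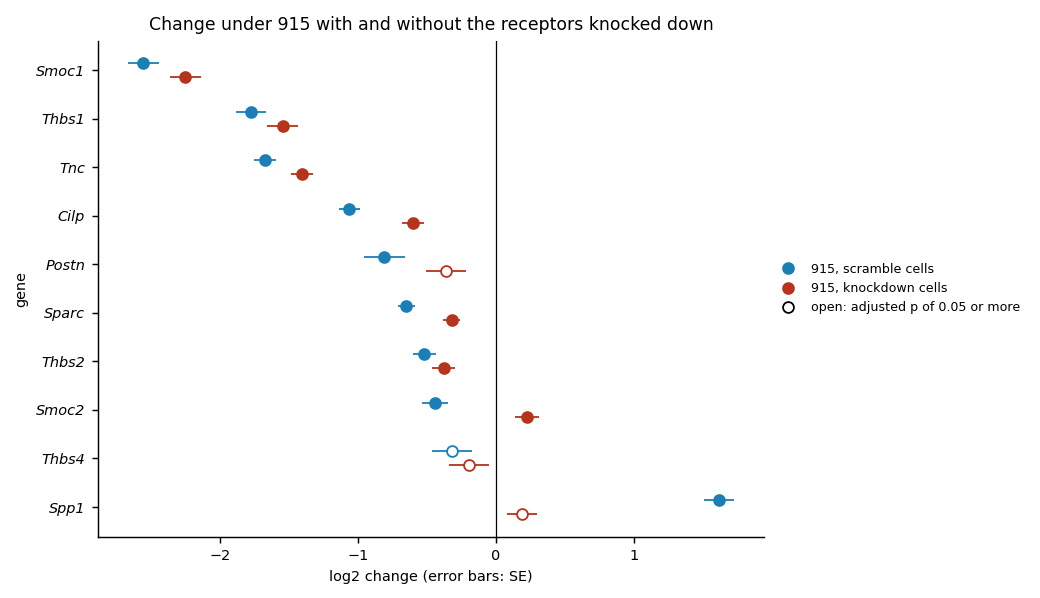
Log2 change under 915 (x axis) of each member (y axis) in scramble cells (blue) and knockdown cells (red), with bars of 1 SE and open circles where the adjusted p was 0.05 or more. Smoc1 lies at -2.56 and -2.25, while Spp1 lies at 1.62 in scramble cells and 0.19 in knockdown cells.

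With the knockdown alone, in vehicle cells, 3 of 10 members passed, against 20.4% of tested genes (7.75% higher, 12.7% lower): Smoc2 rose, while Smoc1 and Cilp fell. Smoc2 was higher in all 3 knockdown libraries than in the scramble libraries given above, as were 17% of tested genes (19.1% were lower in all 3), a log2 change of 0.59 (SE 0.09, adjusted p = 1.6e-05). Smoc1 had a log2 change of -0.32 (SE 0.10, adjusted p = 0.0203) and Cilp of -0.26 (SE 0.08, adjusted p = 0.0208). The Smoc1 call was lost without scramble vehicle replicate 2 or 3 or knockdown vehicle replicate 1 or 3 (adjusted p up to 0.142). The Cilp call was lost without replicate 1 or 2 of scramble vehicle or replicate 1 or 3 of knockdown vehicle (up to 0.114), and when only the groups compared were fitted (0.15). Thbs1 (0.13, adjusted p = 0.492) passed only when the groups compared were fitted alone (0.12, adjusted p = 0.0464). The 6 other members had log2 changes between -0.05 and 0.09.

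Under 915, knockdown cells had higher Smoc2, Sparc, Postn, Thbs1, Tnc and Cilp and lower Spp1 than scramble cells, 7 of 10 members against 33.9% of tested genes (16.2% higher, 17.7% lower). Smoc2 had a log2 change of 1.25 (SE 0.09, adjusted p = 3.74e-11), Spp1 of -1.35 (SE 0.11, adjusted p = 1.84e-06) and Sparc of 0.36 (SE 0.06, adjusted p = 3.07e-05). The calls of Postn (0.45, adjusted p = 0.0428), Thbs1 (0.35, 0.0294), Tnc (0.22, 0.0483) and Cilp (0.21, 0.0493) lay near the threshold. Leaving out 1 library ended the Postn call in 9 of 12 fits (adjusted p up to 0.129), the Tnc call in 9 (up to 0.241), the Cilp call in 8 (up to 0.223) and the Thbs1 call in 3 (up to 0.0954). Smoc2 and Cilp were each called in 5 of 5 rat comparisons, and like patterns were sought for Smoc2, which had the larger change of the 2. Over the 12 rat libraries the log2 CPM most like Smoc2 among 11169 genes were those of Hm13 (Pearson r = 0.98), Pkig (0.98) and Cxcr4 (0.97), all over the same 4 groups.

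Genes related to the members also fell under 915. Of 20 other matricellular genes 15 were tested, and in scramble cells 10 fell and 0 rose, among them Ccn1 at -1.25 (SE 0.06, adjusted p = 1.23e-13) and Ccn3 at -1.54 (SE 0.07, adjusted p = 5.09e-12), both encoding secreted CCN proteins. Of 20 receptor genes 12 fell and 2 rose, among them the integrin subunits Itga8 at -1.51 (SE 0.11, adjusted p = 7.73e-11) and Itgb1 at -0.67 (SE 0.05, adjusted p = 1.12e-10). In knockdown cells 7 other matricellular genes fell and 0 rose, and 13 receptor genes fell and 0 rose. There Ccn1 was at -0.87 (SE 0.06, adjusted p = 1.08e-10), Ccn3 at -1.25 (SE 0.07, adjusted p = 1.78e-10), Itga8 at -1.51 (SE 0.11, adjusted p = 1.01e-10) and Itgb1 at -0.63 (SE 0.05, adjusted p = 6.09e-10). The knockdown in vehicle cells raised 2 other matricellular genes, Ccn4 at 0.65 (SE 0.06, adjusted p = 2.87e-09) and Tgfbi at 0.47 (SE 0.09, adjusted p = 0.000285), and lowered 2. Among the receptors, 6 rose and 2 fell, including Itga3 at 0.28 (SE 0.06, adjusted p = 0.00168) and Cd36, the thrombospondin and fatty acid receptor, at -1.26 (SE 0.14, adjusted p = 0.000121).

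Of 15 genes of transforming growth factor beta signalling, 10 fell and 1 rose under 915 in scramble cells, and 8 fell and 0 rose in knockdown cells. The ligand gene Tgfb3 was at -1.64 (SE 0.07, adjusted p = 6.63e-14) and -1.26 (SE 0.07, adjusted p = 7.86e-12), and Tgfb2 at -0.70 (SE 0.06, adjusted p = 2.66e-10) and -0.69 (SE 0.05, adjusted p = 4.26e-10). Tgfb1 was at -0.18 (SE 0.07, adjusted p = 0.0494) and 0.06 (SE 0.07, adjusted p = 0.559), and its call in scramble cells was lost in 8 of 12 fits without 1 library (adjusted p up to 0.165).

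In scramble cells most markers of fibroblasts, smooth muscle and pericytes fell under 915 as well, while endothelial and macrophage markers did not. Under 915 in scramble cells 6 of 8 fibroblast markers fell and 1 rose, and their summed CPM was 11528 to 13156 in vehicle and 6122 to 6934 in 915 cells. Of 8 markers of smooth muscle and pericytes 1 rose and 5 were lower, with sums of 4665 to 4900.4 and 1779 to 2139 CPM. The sums of the 7 cardiomyocyte markers were 9589.6 to 10614 and 10460.1 to 11312 CPM. In knockdown cells the fibroblast sums were 10597 to 12247 and 7075 to 9249 CPM. The cardiomyocyte sums there were 7113 to 7475 and 5399 to 6761 CPM. The knockdown in vehicle cells lowered 4 of the 7 cardiomyocyte markers and raised 1. Under 915, all 7 were lower in knockdown than in scramble cells. In that comparison 4 of 8 fibroblast markers and 5 of 8 markers of smooth muscle and pericytes were higher, and 0 were lower. The 5 endothelial markers summed to 15.2 to 18.2 CPM in scramble vehicle and 20.1 to 20.7 in scramble 915 cells. The 6 macrophage markers summed to 27.9 to 30.9 and 37.1 to 38.7 CPM. Of 4 tested markers in each list 1 was called higher and 0 lower, while 3 of 4 epicardial markers fell. In knockdown cells 3 endothelial and 2 macrophage markers rose and 0 fell. No fibroblast, smooth muscle, pericyte or cardiomyocyte marker was at 0 in a whole group. The part of other cell types in the members' changes was not tested.

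In the mouse hearts, 3 libraries stood apart. The deposited file names give a sample index and a lane, and the labels name no batch. The indices form 2 series, 79 to 90 and 1 to 6, which were taken here as run 1 and run 2. On that reading, sham 332 replicates 1 to 3 were the only libraries in lane 3 of run 1. Sham vehicle hearts were in lane 4 of run 1 and sham 332 replicates 4 and 5 in run 2. Within run 1, lane and 332 treatment of sham hearts therefore cannot be told apart. Of 14047 tested genes, 17 were at least 2-fold higher in all 3 lane 3 libraries than in each of the 5 other sham libraries, and 3 of the 17 were members: Spp1, Tnc and Thbs1. Among the rest were Myh3, Myog, Mybph and Tnni1, genes of developing skeletal muscle, and the cytokine genes Ccl3 and Cxcl2. The summed CPM of 11 developing skeletal muscle genes, listed after the data were seen and without Acta1, was 18.3 to 23.6 in these 3 libraries and 1.12 to 2.43 in the 15 others. For the members, results that rest on these libraries are given with and without them.

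Sham hearts held little of most members. In sham vehicle hearts the highest levels per length (TPM, the authors' values) were Sparc at 37.6 ± 2.46 (SD, n = 3), Smoc2 at 8.0 ± 1.97 and Postn at 7.91 ± 1.27 TPM. Thbs2 was at 1.13 ± 0.219 and Cilp at 0.451 ± 0.0909 TPM, and the other 5 had means of 0.231 TPM or less, Tnc the lowest at 0.0225 ± 0.00945. Of neighbours in this order, the ranges of Smoc2 and Postn overlapped, as did those of Thbs4 and Smoc1, Smoc1 and Spp1, and Spp1 and Thbs1. In TAC vehicle hearts Postn led at 167 ± 108 (SD, n = 5), then Sparc at 124 ± 47.2 and Cilp at 18.6 ± 11.1 TPM, and the ranges of Postn and Sparc overlapped. Smoc2 followed at 12.5 ± 3.61, Thbs4 at 8.102 ± 6.93, Thbs1 at 2.41 ± 1.49 and Spp1 at 1.31 ± 1.13 TPM. Thbs2 at 0.854 ± 0.308, Tnc at 0.364 ± 0.258 and Smoc1 at 0.318 ± 0.158 TPM were lowest. Of these neighbours only Sparc and Cilp had separate ranges. The TAC vehicle hearts come from both runs, and these TPM values are not adjusted for run. Counts of Spp1 (2 to 66) and Tnc (3 to 186) were low in every heart, which limits their precision.

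**Figure D3:**
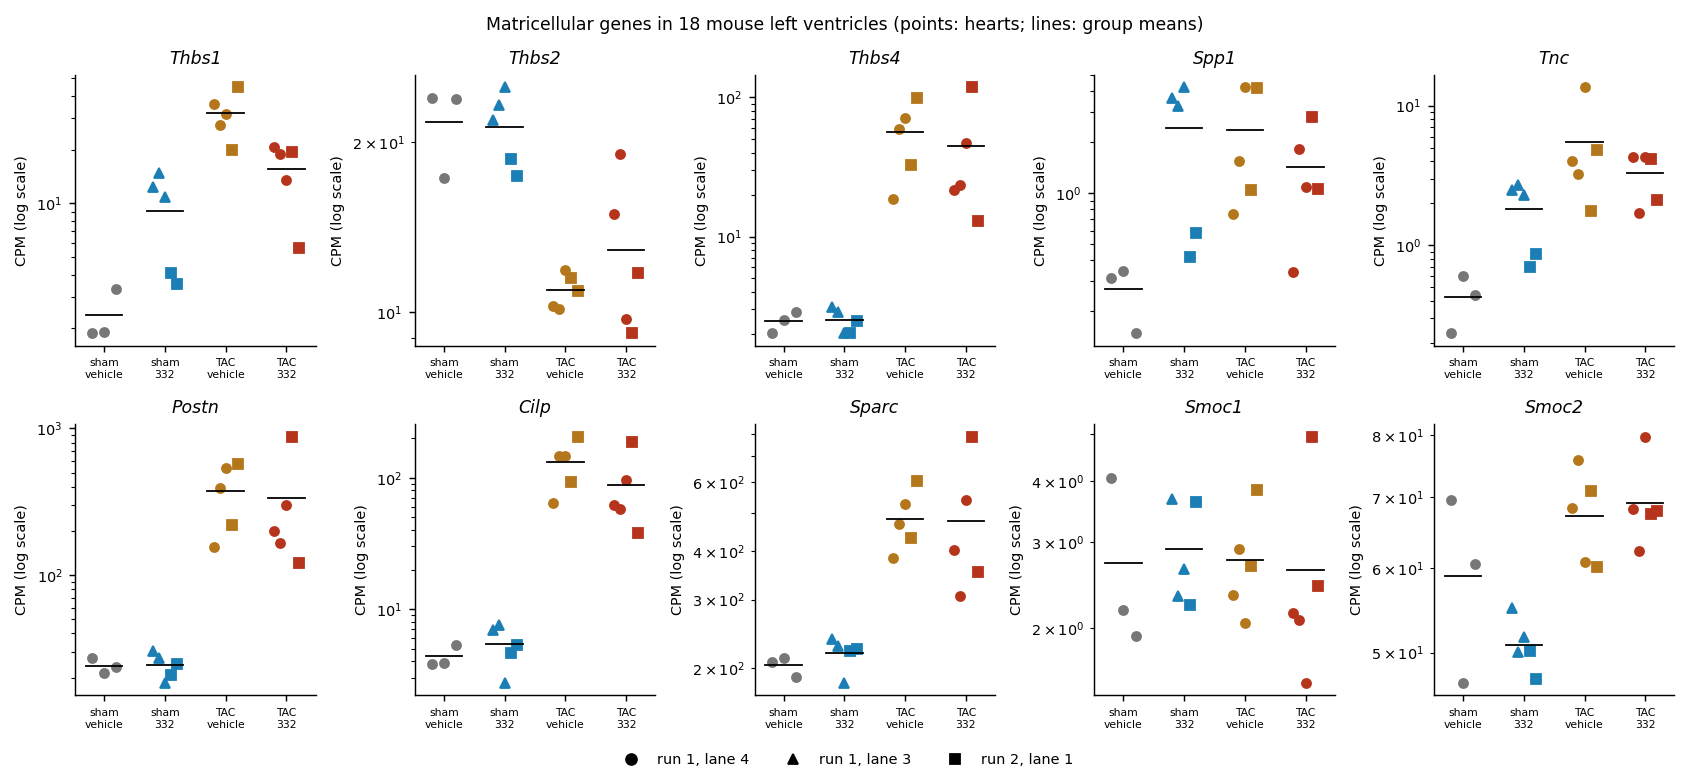
CPM (log axis) of each member in every mouse heart, by group, with lines at group means; circles are run 1 lane 4, triangles run 1 lane 3 and squares run 2. Postn, Cilp and Thbs4 are higher in all 10 TAC hearts than in all 8 sham hearts, while the triangles of Spp1, Tnc and Thbs1 stand above the other sham hearts.

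TAC raised most members in vehicle hearts. Of 10 members 7 rose and 1, Thbs2, fell, against 26.4% of the 14047 tested genes called (13.5% higher, 12.8% lower). The members' median log2 change was 3.53, beside -0.01 over all tested genes. The ranges of the groups were apart for 14.3% of tested genes upward and 13.6% downward. The mouse fit includes a term for the run, as inferred from the sample indices in the file names. Sham vehicle hearts were all in run 1, and a fit of run 1 alone called 8 members for TAC, with Cilp at 4.76 and Postn at 3.92. The share of all genes called in that fit is not given here, so its count of members cannot be set against it.

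Cilp had the largest change. Cilp was at 3.83, 3.91 and 5.33 CPM in the 3 sham vehicle hearts and 63.8, 145, 146, 92.1 and 206 CPM in the 5 TAC vehicle hearts, a log2 change of 4.74 (SE 0.65, adjusted p = 0.000223). Postn was at 26.998, 21.5 and 23.6 CPM in sham and 155, 394, 538, 220.4 and 571 in TAC hearts, a log2 change of 3.79 (SE 0.70, adjusted p = 0.00168). Tnc was at 0.235, 0.608 and 0.444 and 4.03, 3.23, 13.6, 1.76 and 4.79 CPM, a log2 change of 3.92 (SE 0.74, adjusted p = 0.00156). In all 3 genes every TAC heart was above every sham vehicle heart, and Tnc ranged 7.74-fold among TAC vehicle hearts.

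The thrombospondins split in direction. Thbs4 was at 2.03, 2.52 and 2.89 CPM in sham and 18.5, 58.8, 70.6, 32.7 and 99.1 in TAC hearts, a log2 change of 4.22 (SE 0.89, adjusted p = 0.0039). Thbs1 was at 1.88, 1.91 and 3.33 and 36.1, 27.4, 31.6, 19.96 and 44.8 CPM, a log2 change of 3.98 (SE 0.56, adjusted p = 0.000248). Thbs2 was at 23.9, 17.3 and 23.8 and 10.3, 10.1, 11.9, 11.5 and 10.9 CPM, a log2 change of -0.88 (SE 0.18, adjusted p = 0.00153). In CPM every TAC vehicle heart was below every sham vehicle heart for Thbs2 and above for the other 2. In TPM the Thbs2 ranges overlapped, at 0.612 to 1.27 in TAC and 0.887 to 1.305 in sham vehicle hearts. The overlap came from the run 2 TAC hearts, replicates 4 and 5, at 1.10 and 1.27 TPM. The run 1 TAC hearts, at 0.631, 0.612 and 0.659 TPM, were below every sham vehicle heart, all of run 1. For a like CPM of Thbs2, TPM was higher in replicate 5 (10.9 CPM, 1.27 TPM) than in replicate 1 (10.3 CPM, 0.631 TPM).

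Sparc was at 208, 213 and 190.1 CPM in sham and 384, 469, 527, 431 and 605 in TAC hearts, a log2 change of 1.15 (SE 0.25, adjusted p = 0.00444). Smoc1 was at 4.07, 2.17 and 1.92 and 2.33, 2.904, 2.05, 2.67 and 3.84 CPM, and Smoc2 at 69.5, 46.8 and 60.6 and 68.4, 75.8, 60.8, 70.95 and 60.1 CPM. Smoc1 (-0.18, adjusted p = 0.712) and Smoc2 (0.21, adjusted p = 0.146) did not pass, and Smoc2 passed without sham vehicle replicate 1 (0.34, adjusted p = 0.0332). Smoc1 had the other sign without that heart (0.23, adjusted p = 0.681). Spp1 was at 0.313, 0.348 and 0.148 CPM in sham and 0.756, 1.55, 4.25, 1.04 and 4.16 in TAC hearts, a log2 change of 3.26 (SE 1.11, adjusted p = 0.0434). The Spp1 call was lost in 9 of 18 fits that left out 1 library (adjusted p 0.0534 to 0.145): each sham vehicle heart, sham 332 replicates 1 and 2, TAC vehicle replicates 3 and 5, and TAC 332 replicates 2 and 5. It was also lost with a replicate block (0.0829) and when only the groups compared were fitted (0.0711). In TPM the Spp1 ranges overlapped, with sham vehicle replicate 2 at 0.413 and TAC vehicle replicate 1 at 0.329 TPM.

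Among hearts given 332, TAC raised 5 members (Cilp, Thbs4, Postn, Sparc, Smoc2) and lowered Thbs2, against 23.8% of tested genes called (11.8% higher, 12.1% lower). Ranges were apart for 5.88% of tested genes upward and 5.2% downward. Thbs4 was at 3.13, 2.87, 2.03, 2.02 and 2.47 CPM in sham 332 and 21.6, 23.5, 47.1, 119 and 12.9 in TAC 332 hearts, a log2 change of 4.12 (SE 0.72, adjusted p = 0.00123). Cilp was at 6.99, 7.53, 2.73, 4.59 and 5.302 and 61.5, 57.4, 96.04, 187 and 38.1 CPM, a log2 change of 3.99 (SE 0.50, adjusted p = 0.000134). Postn was at 30.1, 27.1, 18.3, 20.9 and 24.5 and 201, 166, 302, 879.8 and 121 CPM, a log2 change of 3.7 (SE 0.56, adjusted p = 0.000506). For these 3 genes the groups did not overlap. Sparc was at 237, 229, 183, 221 and 224 and 402, 306, 539, 787 and 353 CPM, a log2 change of 1.11 (SE 0.21, adjusted p = 0.00166). Smoc2 was at 55.1, 50.02, 51.7, 50.2 and 47.3 and 68.2, 62.2, 79.8, 67.5 and 67.9 CPM, a log2 change of 0.44 (SE 0.09, adjusted p = 0.00116). Thbs2 was at 21.9, 23.2, 25.05, 18.7 and 17.4 and 14.9, 19.01, 9.71, 9.17 and 11.7 CPM, a log2 change of -0.72 (SE 0.15, adjusted p = 0.00206). Sparc and Smoc2 were higher in every TAC 332 heart than in every sham 332 heart, while the Thbs2 ranges overlapped. Thbs1 (0.83, adjusted p = 0.134), Tnc (0.97, 0.183), Spp1 (-0.61, 0.581) and Smoc1 (-0.17, 0.681) did not pass.

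Without the 3 lane 3 libraries the values of the 3 members that stood apart there moved most. Thbs1 was then at 1.89 (adjusted p = 0.0733), Tnc at 1.70 (0.279) and Spp1 at 1.80 (0.256), so the sign of Spp1 turned, as did that of Smoc1 (0.20, 0.789). Cilp (4.43, adjusted p = 0.0145), Thbs4 (4.70, 0.0433), Postn (4.19, 0.0302), Sparc (1.28, 0.0406) and Smoc2 (0.48, 0.0474) still passed, and Thbs2 (-0.61, 0.137) did not. Within run 1 alone 6 members passed for TAC among 332 hearts, with Cilp at 3.63, Thbs4 at 3.52 and Postn at 3.15. In that run all sham 332 hearts were in lane 3 and all TAC 332 hearts in lane 4. Lane and TAC therefore cannot be told apart in this fit. Within run 2, with 2 hearts in each group, none passed, and these 3 were at 4.52, 4.88 and 4.47 (adjusted p 0.228 to 0.305).

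No member passed for 332 against vehicle within TAC hearts, against 0.427% of tested genes (0.135% higher, 0.292% lower; edgeR quasi-likelihood test; 1 member had an unadjusted p below 0.05, and DESeq2 called 0). That member was Thbs1, at 36.1, 27.4, 31.6, 19.96 and 44.8 CPM in TAC vehicle and 20.7, 18.8, 13.5, 19.3 and 5.66 in TAC 332 hearts. Its log2 change was -1.09 (SE 0.35, adjusted p = 0.201), and the groups overlapped. It was -0.85 within run 1 and -1.39 within run 2. In TAC 332 hearts Spp1 was at 0.343, 1.83, 1.08, 2.82 and 1.05 CPM and Tnc at 4.29, 1.71, 4.32, 4.16 and 2.11 CPM, both overlapping the TAC vehicle hearts. Their log2 changes were -0.67 (SE 0.67, adjusted p = 0.74) and -0.65 (SE 0.44, adjusted p = 0.579). Without the filter on low counts 5 members were called lower: Thbs1 (-1.09, adjusted p = 2.08e-25), Cilp (-0.59, 1.75e-12), Thbs4 (-0.39, 0.000323), Tnc (-0.65, 0.0172) and Postn (-0.25, 0.0422). That fit kept every gene with any count and called 671 genes in all, against 60 in the main fit. The members' own counts were the same in both fits, and the log2 change of Thbs1 stayed at -1.09 with overlapping groups. Besides Thbs1, Spp1 and Tnc, the 7 other members had log2 changes between -0.59 and 0.23 in the main fit, with SEs from 0.09 for Smoc2 to 0.52 for Thbs4. The 6 macrophage markers summed to 153 to 208 CPM in TAC vehicle and 106 to 141 in TAC 332 hearts. None of the 6 was called and 5 had an unadjusted p below 0.05, with a median log2 change of -0.43, and their part in the members' values was not tested.

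**Figure D4:**
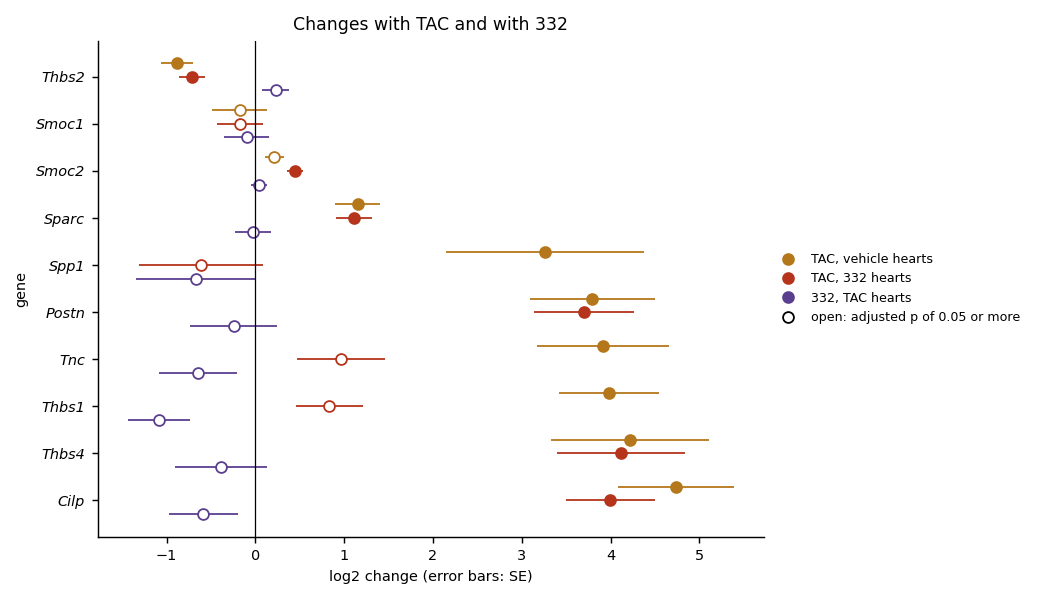
Log2 change (x axis) of each member (y axis) with TAC in vehicle hearts (ochre), with TAC in 332 hearts (red) and with 332 in TAC hearts (purple), with bars of 1 SE and open circles where the adjusted p was 0.05 or more. Cilp lies at 4.74 and 3.99 for TAC, and all 332 points are open.

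In sham hearts 332 also gave no member past the test, against 0.00712% of tested genes, all of it higher and 0% lower. Unadjusted p was below 0.05 for Spp1, Tnc and Thbs1, and DESeq2 called 1 of them, Thbs1 (adjusted p = 0.0428). All 3 were called when only the groups compared were fitted or without the filter on low counts. Those fits called 28 and 191 genes in all, against 1 in the main fit. Spp1 was at 3.67, 3.26 and 4.23 CPM in the lane 3 hearts and 0.417 and 0.581 in the other 2 sham 332 hearts, against 0.313, 0.348 and 0.148 in sham vehicle hearts. Tnc was at 2.51, 2.72 and 2.29 and then 0.695 and 0.872 CPM, against 0.235, 0.608 and 0.444. Thbs1 was at 12.4, 14.8 and 10.8 and then 4.101 and 3.56 CPM, against 1.88, 1.91 and 3.33. In CPM all 5 sham 332 hearts were above all sham vehicle hearts for these 3 genes, as were 3.05% of tested genes (2.29% were below), but the high values were those of lane 3. In TPM the Spp1 ranges overlapped, with sham vehicle replicate 2 at 0.413 TPM and sham 332 replicates 4 and 5 at 0.202 and 0.323 TPM. The log2 changes were 3.2 (SE 1.09, adjusted p = 0.894) for Spp1, 2.31 (SE 0.82, adjusted p = 0.902) for Tnc and 2.06 (SE 0.58, adjusted p = 0.683) for Thbs1. Without lane 3 they were 0.36, 1.46 and 0.86, each with an adjusted p of 1. The part of the developing muscle genes or of the lane in these values was not tested.

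No member passed the test of the difference between the 332 effects in TAC and sham hearts, against 0.0641% of tested genes (0.0214% above 0, 0.0427% below). The 3 members with unadjusted p below 0.05 were the same: Thbs1 at -3.15 (SE 0.68, adjusted p = 0.114), Spp1 at -3.87 (SE 1.29, adjusted p = 0.285) and Tnc at -2.95 (SE 0.93, adjusted p = 0.26). DESeq2 called Thbs1 (adjusted p = 0.000415), and so did a fit of run 1 alone (0.000206). In run 1 the sham 332 hearts were all lane 3 hearts, so lane and 332 cannot be told apart in that fit. Without the filter on low counts 4 members were called below 0: Thbs1 (-3.15, adjusted p = 1.94e-56), Spp1 (-3.87, 1.24e-12), Tnc (-2.96, 1.1e-11) and Cilp (-0.75, 0.000428). That fit called 521 genes in all, against 9 in the main fit, from the same member counts. Without lane 3 the differences were -1.92, -1.08 and -2.14 (adjusted p = 0.919, 0.976 and 0.952).

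TAC hearts differed from each other for several members at once. Of the 7 members that rose with TAC in vehicle hearts, TAC vehicle replicate 5 was highest for 5 and replicate 1 lowest for 5. Among TAC 332 hearts replicate 4 was highest for 5 of the 7 and replicate 5 lowest for 4. Postn ranged 7.25-fold among TAC 332 hearts and 3.69-fold among TAC vehicle hearts, and Thbs4 ranged 9.22-fold and 5.35-fold. These ranks and ranges use CPM that are not adjusted for run. TAC vehicle replicate 1 was in run 1, while TAC vehicle replicate 5 and TAC 332 replicates 4 and 5 were in run 2. How often these hearts were highest or lowest over all genes was not counted.

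The makeup of Postn transcripts also differed between sham and TAC hearts. The deposited files give estimated reads for each transcript, and Postn-201, Postn-203, Postn-204 and Postn-206, all protein-coding, are described here. Postn-204 held 69.4, 77.7 and 59.01 percent of the gene's reads in sham vehicle hearts and 49.3, 25.6, 48.04, 22.8 and 8.498 percent in TAC vehicle hearts. Postn-201 held 1.73, 8.81 and 8.73 percent in sham vehicle and 16.4, 31.7, 21.96, 30.7 and 39.6 percent in TAC vehicle hearts. Every TAC vehicle heart was below every sham vehicle heart for Postn-204 and above for Postn-201. Hearts given 332 showed the same direction for Postn-204, at 67.1, 70.8, 77.5, 68.6 and 55.1 percent in sham and 52.1, 27.4, 28.4, 0 and 31.5 percent in TAC hearts. The 0 of TAC 332 replicate 4 can be a failed estimate. Postn-203 held 12.6, 0 and 18.1 percent in sham vehicle and 21.5, 29.1, 13.7, 29.96 and 36.1 percent in TAC vehicle hearts. Postn-206 averaged 12.7 ± 0.695 percent (SD, n = 3) in sham vehicle and 10.8 ± 1.597 (SD, n = 5) in TAC vehicle hearts. These shares were not tested, and transcripts that share exons are split by estimation.

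**Figure D5:**
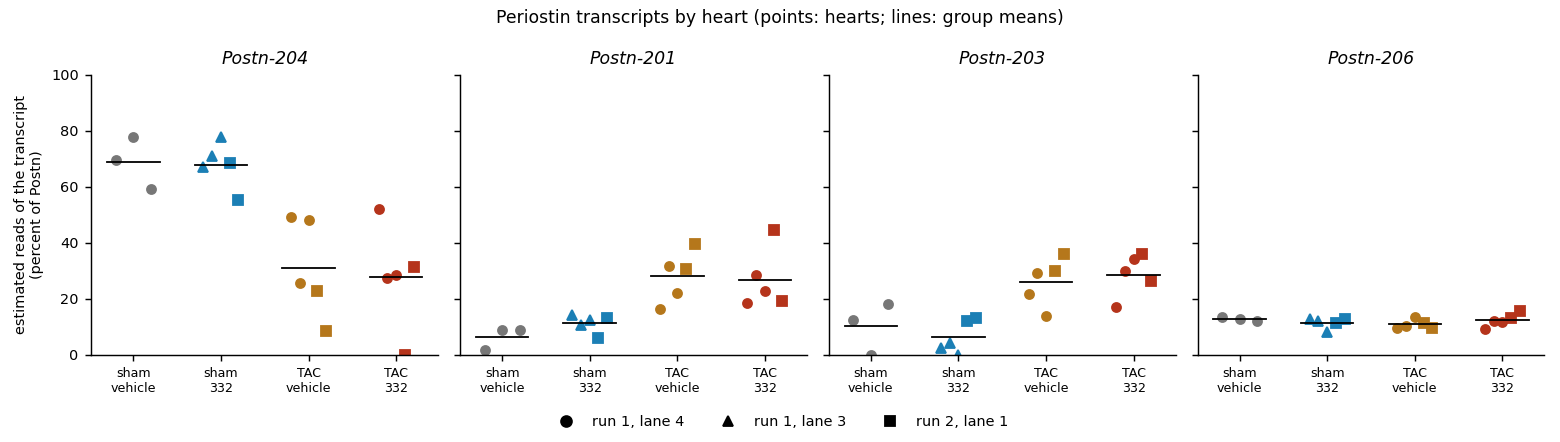
Share of Postn reads (y axis, percent) assigned to each of 4 transcripts in every heart, by group; circles are run 1 lane 4, triangles run 1 lane 3, squares run 2, and lines are group means. Postn-204 is at 55.1 percent or more in all sham hearts and at 52.1 percent or less in all TAC hearts.

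Genes related to the members also rose with TAC in vehicle hearts. Of 20 other matricellular genes 13 were tested, of which 5 rose and 1 fell, including Ccn1 at 1.17 (SE 0.23, adjusted p = 0.00194) and Fstl1, a SPARC-related secreted protein, at 1.61 (SE 0.32, adjusted p = 0.00267). Of 20 receptor genes 10 rose and 1 fell, including the integrin subunits Itga9 at 1.4 (SE 0.20, adjusted p = 0.000197) and Itga5 at 0.87 (SE 0.14, adjusted p = 0.000223). Of 15 genes of transforming growth factor beta signalling 7 rose and 2 fell. The ligands were at 0.74 (SE 0.12, adjusted p = 0.000137) for Tgfb1, 1.5 (SE 0.43, adjusted p = 0.0214) for Tgfb2 and 1.22 (SE 0.21, adjusted p = 0.000487) for Tgfb3. The Tgfb2 call was lost without any 1 of the sham vehicle hearts or TAC vehicle replicate 3 (adjusted p 0.052 to 0.0787), without lane 3 (0.0551) and when only the groups compared were fitted (0.0517). No gene of these 3 lists was called for 332 in TAC or in sham hearts by edgeR. Unadjusted p was below 0.05 for 1, 4 and 4 genes of these lists in TAC hearts and for 0, 1 and 2 in sham hearts.

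Cilp, the member with the largest change among those called in most mouse comparisons (2 of 5), had its nearest patterns in Ltbp2 (Pearson r = 0.99), Dio2 (0.98) and Mfap5 (0.98) among 9682 genes. That likeness is over all 18 hearts, which share the sham and TAC split. Beside the TAC changes, 6 of 8 fibroblast markers rose, with sums of 499 to 575 CPM in sham vehicle and 903 to 1420.5 in TAC vehicle hearts. The 6 macrophage markers summed to 114 to 157 and 153 to 208 CPM, with 1 called. The 4 epicardial markers summed to 7.43 to 16.3 CPM in sham 332 and 3.601 to 5.78 in TAC 332 hearts, with 3 called lower. In vehicle hearts they summed to 3.29 to 9.03 CPM in sham and 3.87 to 9.89 in TAC hearts, with 0 called. The sham 332 group includes the lane 3 hearts, and no fit of these markers without them is given. The part of these marker lists in the members' changes was not tested.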

How the data were processed

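The rat table holds raw counts per gene that the authors deposited beside FPKM values, and the submitters' processing notes name HISAT2 2.0.5, StringTie 1.3.3b, featureCounts 1.5.0-p3, DESeq2 1.20.0 and rn6. The mouse files hold estimated counts and TPM per transcript, deposited by the authors with Salmon, fastp and DESeq2 named in the submitters' processing notes. The mouse build is not given in the sources used here. Estimated counts of 140790 transcripts were summed to 54307 gene IDs, and the 7.43% of gene values that were not whole were rounded.

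Genes were tested with edgeR 4.0.16 in R 4.3.3 (TMM, filterByExpr with a minimum count of 10, robust quasi-likelihood F-test, Benjamini-Hochberg at 0.05), in 1 fit per species, with 15181 rat and 14047 mouse genes tested. The mouse fit has a term for the run, inferred from the series of sample indices in the file names, since the labels name no batch. CPM values use these library sizes. Scripts ran in Python 3.11.15 with pandas 2.3.3 and matplotlib 3.10.9, and the fits were tested on simulated data. No 2 replicates agreed within sampling noise.

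Besides the 10 members, the named genes are up to 2 per list and comparison with the smallest adjusted p and a mean of at least 1 CPM, Tgfb1, Tgfb2, Tgfb3, Esrra, Esrrg, and the 3 genes most like 1 member per species. The members and lists were chosen with earlier results of these data known. Alternatives were RLE scaling, no filter, a stricter filter, DESeq2 1.42.0, only the groups compared, a replicate block, no run term, each run alone, and leaving out each library. The fit without the lane 3 libraries was added after the data were seen. A check of the replicate numbers found correlations of same-numbered libraries' deviations of -0.05 to 0.04 in rat and -0.27 to 0.08 in mouse.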

Additional observations from a re-analysis of the deposited data

Results flagged for a closer look

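Of the 5 TAC 332 hearts, replicate 4 lay far from the others for Postn, at 880 CPM against 121 to 302, and for Smoc1, at 4.94 CPM against 1.54 to 2.44. Of the 5 TAC vehicle hearts, replicate 3 lay far from the others for Tnc, at 13.6 CPM against 1.76 to 4.79. The check was run on CPM, without logs, for the 10 members in the sham 332, TAC 332 and TAC vehicle groups. Chance alone would set it off in about 1 in 20 groups if values were independent and normally distributed, which was not tested. Both flags among TAC 332 hearts come from the same heart.

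The change under 915 differed between knockdown and scramble cells for 4 members by the test of the difference (edgeR quasi-likelihood test, Benjamini-Hochberg adjusted). For Spp1 the difference in log2 change was -1.43, with 3 of 3 libraries higher than every vehicle library in scramble cells and overlapping groups in knockdown cells. For Smoc2 it was 0.67, with a fall in scramble and a rise in knockdown cells. For Cilp it was 0.46 and for Sparc 0.33, with smaller falls in knockdown cells.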

How the results depend on the processing

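The number of genes called for 332 moved with the setting. Against 60 in TAC hearts, 1 in sham hearts and 9 for the difference, there were 671, 191 and 521 without the filter on low counts and 183, 5 and 88 with DESeq2. Fits of only the groups compared called 30 in TAC and 28 in sham hearts, fits with no run term 13, 0 and 0, run 1 alone 10, 12 and 5, and run 2 alone 3 in TAC hearts. Without lane 3 there were 2 in sham hearts and 3 for the difference. For TAC among 332 hearts, 3349 genes became 2208 with no run term, 1662 in run 1, 52 in run 2 and 1045 without lane 3. Of the members, the 0 for 332 in TAC hearts, in sham hearts and for the difference became 5, 3 and 4 without the filter. In sham hearts and for the difference they became 1 and 1 with DESeq2 and 1 and 1 in run 1, and 3 in sham hearts with only the groups compared. TAC among 332 hearts called 0 in run 2, and the knockdown under 915 called 4 with only the groups compared.

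Leaving out 1 library at a time, the genes called ranged from 2338 to 3310 for the knockdown in vehicle cells, 4199 to 5138 under 915, 5536 to 6625 for 915 in scramble and 4627 to 5394 in knockdown cells, and 259 to 677 for the difference. They ranged from 2437 to 4050 for TAC in vehicle and 2488 to 3668 in 332 hearts, 22 to 94 for 332 in TAC and 0 to 2 in sham hearts, and 0 to 25 for the difference. The members called ranged from 1 to 3, 3 to 7, 9 to 10, 6 to 9 and 2 to 6 in the 5 rat comparisons in that order, then 7 to 8 and 6 throughout for TAC, and 0 throughout for the 3 of 332. For the knockdown in vehicle cells the 1 came without scramble vehicle replicate 2 or knockdown vehicle replicate 1 or 3. Under 915 the 3 or 4 came without replicate 1 or 3 of scramble vehicle, 2 or 3 of scramble 915, 3 of knockdown vehicle, or 1 or 2 of knockdown 915. For the difference the 2 came without replicate 1 or 2 of scramble vehicle, 3 of scramble 915, 3 of knockdown vehicle, or 2 of knockdown 915.

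Of the changes given one by one, signs turned, never past the test, for Smoc1 with TAC in vehicle hearts (0.023 with no run term, and -0.39 to 0.23 without 1 library, 0.23 without sham vehicle replicate 1) and in 332 hearts (0.34 in run 2, 0.20 without lane 3). They also turned for Spp1 with TAC in 332 hearts (1.94 in run 2, 1.80 without lane 3) and Tgfb1 under 915 in knockdown cells (-0.011 to 0.13 without 1 library, the lowest without knockdown 915 replicate 2). Of 780 values over 33 further member and comparison pairs 90 had the other sign, 0 of them past the test. The cause was not tested, beyond the smaller number of hearts in single runs. With the replicate number as a block 6 members were called for the knockdown under 915 and 7 for TAC in vehicle hearts, and the other member counts were the same. The labels do not say that the numbers mark shared animals or cultures, so this pairing was not used. No scaling moved the median of all genes by more than 0.1. Low counts limit Spp1 and Tnc in hearts.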

Other observations

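The rat and mouse comparisons share no libraries, and their calls for the members can be set side by side. Of the 10 members, 5 (Cilp, Postn, Sparc, Thbs1, Tnc) fell under 915 in scramble myocytes and rose with TAC in vehicle hearts. Since 8 members fell under 915 and 7 rose with TAC, 5 is the smallest overlap that these counts allow. The share of all genes with this pattern was not counted. Spp1 rose in both, although its TAC call was lost in 9 of 18 fits that left out 1 library, and Thbs2 fell in both. Smoc1 and Smoc2 fell under 915 and did not pass the test for TAC, while Thbs4 rose with TAC and did not pass the test for 915. The agonists, species, ages and cell makeup differ between these comparisons, and the overlap was not tested.

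In myocytes under 915, 6 of 15 other matricellular genes tested were higher and 0 lower with the knockdown than without it. Over all tested genes 16.2% were called higher and 17.7% lower.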
